A study of Mus musculus with 12 samples.

Results

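The 10 genes described here encode 8 cathepsins (Ctsa, Ctsb, Ctsc, Ctsd, Ctsh, Ctsl, Ctss and Ctsz), the lysosomal endopeptidase legumain (Lgmn) and the cathepsin inhibitor cystatin C (Cst3). They were chosen by gene name and all are described, and all 10 were present in both deposited count tables, which hold 54957 symbols for macrophages without and 55367 for macrophages with apoptotic cells. RNA had been sequenced from primary mouse bone marrow-derived macrophages in 12 libraries, with 3 in each of 4 groups. The groups were wild type (WT), cells labelled as lacking the kinesin motor gene Kif13b (KO), and both genotypes after 90 min with dying cells of the human leukaemic T cell line Jurkat (AC, for apoptotic cells), at 5 per macrophage (WT + AC and KO + AC). The series concerns efferocytosis, the uptake and digestion of dying cells, and the proteases described here act at its last step.

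Cathepsins are made as inactive proenzymes, sorted to endosomes and lysosomes mainly by the mannose 6-phosphate tag, and activated there by acid and by cleavage. Cathepsins B, C, H, L, S and Z are cysteine proteases, cathepsin D is an aspartic protease and cathepsin A is a serine carboxypeptidase. Legumain cuts after asparagine and helps to mature several cathepsins. Cystatin C is secreted and blocks cysteine cathepsins that have left the lysosome. Cathepsin S, and in some cell types cathepsin L, also trims the invariant chain. That chain holds the peptide groove of MHC class II closed until an antigen fragment is loaded.

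The labels gave mice of 6 to 8 weeks and marrow of the tibia for all groups. The KO genotype is called a knock down in some labels and written as -/- in others. Neither the allele nor the number of animals or cultures is stated, so p-values reflect the spread between the libraries at hand, which may be technical. Serum is labelled 10, 10 and 11% for WT and 12, 13 and 14% for KO libraries 1, 2 and 3 without AC. Those serum values follow the genotype, and their part in the results was not tested. Kif13b itself had 33.2 to 35.9 CPM (counts per 1000000 counts of the scaled library) in WT and 19.1 to 25.9 in KO, a difference of -0.59 ± 0.14 (SE) on the log2 scale (edgeR adjusted p = 0.0087). With AC it was higher in the libraries labelled KO (88.4 to 89.5 CPM) than in WT + AC (77.6 to 81.5), against the label (log2 0.13, edgeR adjusted p = 0.0261). KO and KO + AC therefore mean the libraries so labelled throughout. Libraries held 17000976 to 18770757 counts. Their spread was unequal, with a common biological coefficient of variation of 0.117 without and 0.0294 with AC. The table and the presence of AC are the same split of the libraries and cannot be told apart.

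Of the 10 genes, 8 had a promoter window in RefSeq (GRCm38.p6), and the 250 bases before the start site were searched on both strands for 5 motifs. Ctsd is shown because its window held TCACGTGA, a palindrome known from the promoters of many lysosomal genes, which 0.785% of 32851 windows held. The shorter CACGTG within it stood in 6.02% of windows. The 30 bases shown for Ctsd lie at chr7:142387908-142387937 on the minus strand, and capitals mark the palindrome, 99 to 92 bases before the start. Ctss and Ctsc are shown whole because they had the 2 highest interaction values of the members, described further on, of which that of Ctss was not called. The Ctss window lies at chr3:95526536-95526785 and the Ctsc window at chr7:88277835-88278084, both on the plus strand. Capitals in the Ctss line mark GAGGAA, the core bound by the macrophage factor PU.1, and a repeated GAAA with any 2 bases between, an interferon response core 21 to 12 bases before the start. Those in the Ctsc line mark GAGGAA on the other strand at 2 places and TTCNNNGAA, a STAT-type core. Of all windows, 23.3% held GAGGAA, 2.98% the repeated GAAA and 7.02% TTCNNNGAA.
Ctsd: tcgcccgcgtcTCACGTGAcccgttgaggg
Ctss: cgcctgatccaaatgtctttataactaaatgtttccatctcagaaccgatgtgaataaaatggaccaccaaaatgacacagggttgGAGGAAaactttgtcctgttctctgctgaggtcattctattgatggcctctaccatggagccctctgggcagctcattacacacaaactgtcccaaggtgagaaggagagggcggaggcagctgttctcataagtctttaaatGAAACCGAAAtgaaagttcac
Ctsc: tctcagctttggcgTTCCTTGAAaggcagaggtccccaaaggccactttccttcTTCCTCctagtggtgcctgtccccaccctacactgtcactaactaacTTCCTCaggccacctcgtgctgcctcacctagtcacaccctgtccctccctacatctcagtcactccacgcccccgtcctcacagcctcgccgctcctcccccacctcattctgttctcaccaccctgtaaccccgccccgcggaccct
A match of letters describes the window and is not a measured binding site. An alternative Ctsa window also held TCACGTGA, and windows of Ctsl and Lgmn that do not belong to the start of the reference transcript held CACGTG. The windows of Ctsa and Lgmn at that start held none of the 5 motifs. The Cst3 window held GAGGAA, and the Ctsz window held none of the 5 motifs.

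Together the 10 genes took 6.67 to 6.80% of all counts in WT and 6.62 to 7.70% in KO, and 3.64 to 3.70% in the 6 libraries with AC. Levels of different genes were compared per kilobase of each gene's reference transcript. In WT, Ctss was the most abundant at 13298 ± 1322 CPM per kilobase (SD, n = 3), and its 3 values lay above those of every other member. Ctsb followed at 5377 ± 184, then Ctsl at 4787 ± 353 and Ctsd at 4721 ± 330, the last pair with overlapping values. Cst3 (2946 ± 140) and Ctsz (2561 ± 152) came next without overlap. Lower still were Lgmn at 1551 ± 45.2, Ctsa at 835 ± 64.3, Ctsh at 462 ± 6.70 and Ctsc, the protease that activates granule serine proteases, at 139 ± 8.31 CPM per kilobase. In KO the order changed in its upper part, with Ctsl second at 7265 ± 908, overlapping Ctsd (6239 ± 863), which in turn overlapped Ctsb (5726 ± 482). With AC, Ctss was again first in both genotypes, at 3967 ± 43.2 in WT + AC and 4647 ± 19.4 in KO + AC, and Ctsc was again last. Ctsl was the third in WT + AC (2410 ± 52.5) and came after Ctsd in KO + AC (1999.8 ± 21.8), with no overlap with its neighbours in either group. The order depends on the length used. Over all annotated exons, which give Ctsl 6489 bases against 1971 in the reference transcript, Ctsl stood sixth in both WT and KO. By that length the order of the 10 genes was the same in WT and KO. In WT, Ctsz (2561 CPM per kilobase) then stood above Cst3 (2001) without overlap, and Ctsd overlapped Ctsb.

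**Figure D1:**
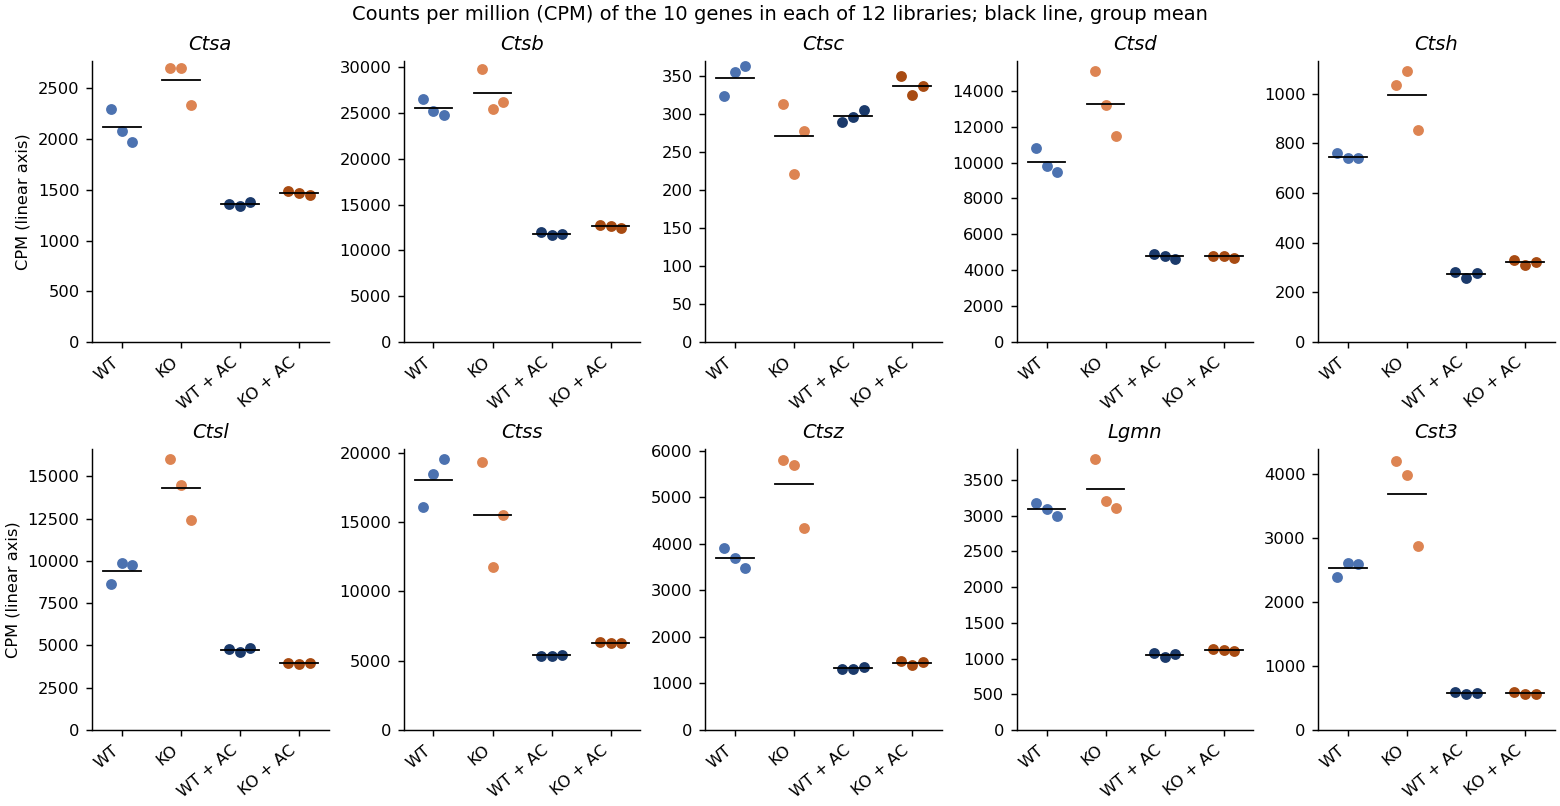
CPM of each of the 10 genes (linear vertical axes from 0) in the 12 libraries, with points in the order of libraries 1 to 3 and a black line at the mean of each group. The libraries with AC lie below those without for 9 genes, and only Ctsc stays within 221 to 363 CPM throughout.

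The first comparison was of KO with WT macrophages without AC. Ctsl, Cst3, Ctsz and Ctsh were higher in KO by 1.33- to 1.52-fold, and no member was lower at an adjusted p under 0.05. These are the endopeptidase cathepsin L, its secreted inhibitor cystatin C, the carboxypeptidase cathepsin Z and the aminopeptidase cathepsin H. They were 4 of 10 members called, beside 16.2% of all genes tested (7.94% higher and 8.24% lower). The median log2 difference was 0.35 over the members and 0.02 over all genes.

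Among the endopeptidases, Ctsl had 8634, 9889 and 9782 CPM in WT libraries 1, 2 and 3 and 16008, 14503 and 12445 in the KO libraries. Every KO value lay above every WT value. The log2 difference was 0.60 ± 0.15 (SE, edgeR adjusted p = 0.0106). Ctss, which trims the invariant chain, had 16043, 18478 and 19538 CPM in WT and 19336, 11719 and 15498 in KO. Its groups overlapped, with KO library 1 among the highest and KO library 2 the lowest of the 6, and it was not called (log2 -0.21 ± 0.16, edgeR adjusted p = 0.372). Ctsb, the member with the most counts, had 24832 to 26494 CPM in WT and 25470 to 29762 in KO, overlapping and not called (log2 0.09 ± 0.14). The aspartic protease Ctsd had 10830, 9805 and 9488 CPM in WT and 15137, 13206 and 11468 in KO. Its groups did not overlap, but it missed the threshold (log2 0.41 ± 0.15, edgeR adjusted p = 0.0570). Lgmn overlapped between the groups, at 2993 to 3172 CPM in WT and 3109 to 3793 in KO (log2 0.13 ± 0.14).

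Of the exopeptidases, Ctsz had 3907, 3695 and 3469 CPM in WT and 5804, 5696 and 4347 in KO, a log2 difference of 0.52 ± 0.14 (edgeR adjusted p = 0.0203). Ctsh had 760, 741 and 740 CPM in WT and 1035, 1090 and 855 in KO (log2 0.41 ± 0.13, edgeR adjusted p = 0.0371). For both genes KO library 3 was the lowest of the KO libraries and still above all WT libraries. Ctsa, which also shields lysosomal glycosidases from degradation, had 1974 to 2294 CPM in WT and 2334 to 2701 in KO without overlap and was not called (log2 0.29 ± 0.14, edgeR adjusted p = 0.137). Ctsc was the member furthest in the other direction, with 324, 355 and 363 CPM in WT and 313, 221 and 278 in KO. Its groups did not overlap, and it was not called (log2 -0.36 ± 0.13, edgeR adjusted p = 0.0648). The inhibitor Cst3 had 2395, 2613 and 2593 CPM in WT and 4213, 3998 and 2883 in KO (log2 0.55 ± 0.15, edgeR adjusted p = 0.0187). Again KO library 3 stood nearest to WT. In all, 7 of 10 members had groups that did not overlap, beside 33.6% of genes.

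**Figure D2:**
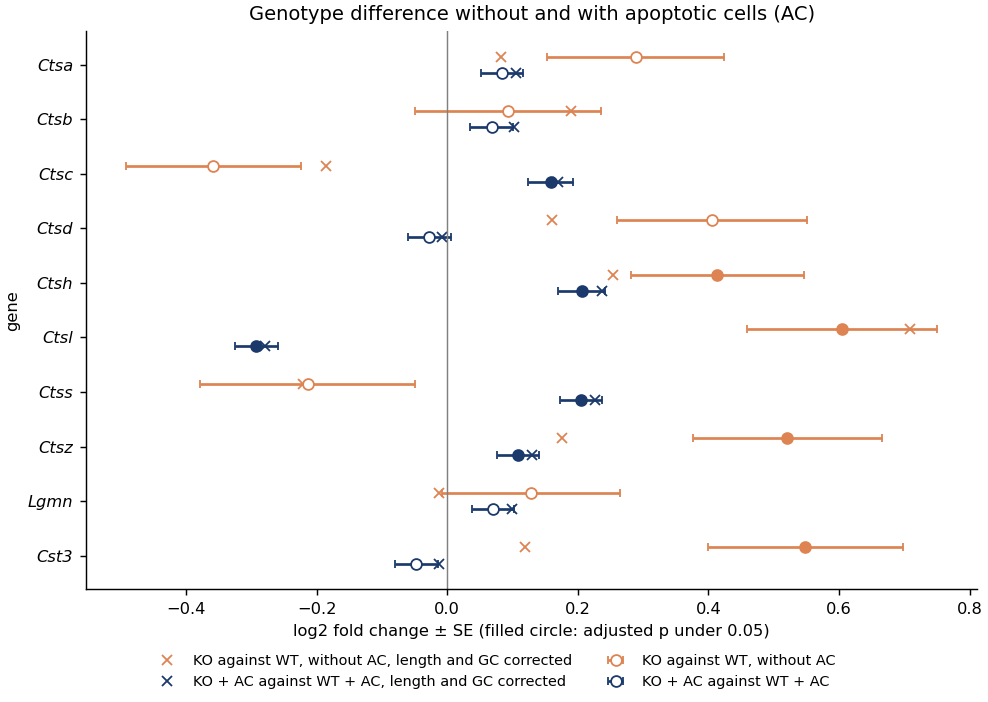
Log2 fold change with its standard error for KO against WT without AC (orange) and KO + AC against WT + AC (blue), by gene, with filled circles where the edgeR adjusted p was under 0.05. Crosses give the value after correction for length and GC of the reference transcript; without AC the cross for Cst3 lies at 0.12 against 0.55 uncorrected, and for Ctsl at 0.71 against 0.60.

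These calls moved with the libraries and with gene length. Across genes, the correlation of a library's deviation with log2 length was -0.67 and -0.37 in KO libraries 1 and 2, 0.41 in KO library 3 and 0.27 to 0.54 in WT (10578 genes, which are not independent replicates). After correction for length and GC of the reference transcript, Ctsl alone was called (log2 0.71, edgeR adjusted p = 0.000258, range over alternatives 7.19e-05 to 0.0876), while Cst3 came to 0.12, Ctsz to 0.18 and Ctsh to 0.25. Correction over all exons kept Ctsl and Ctsh. Leaving out WT library 1, WT library 2 or KO library 2 left 1 member called, leaving out WT library 3 or KO library 1 left 0 (5 and 6 at an unadjusted p under 0.05), and leaving out KO library 3 gave 7, with Ctsa and Ctsd higher and Ctsc lower beside the 4. With KO library 3 as the only KO library, assumed to vary as WT does, Ctsl was at 0.40, and 0 members (3 unadjusted) and 95 of all genes were called. Stromal markers moved with the genotype. The 11-gene fibroblast and stromal list summed to 676 to 833 CPM in WT and 1022 to 1323 in KO. In it 7 of 11 genes were higher, beside 7.94% of all genes higher and 8.24% lower. The osteoclast list summed to 1664 to 2101 and 2057 to 2476 CPM. The macrophage list summed to 30243 to 32771 and 30703 to 38235 CPM, with 0 of 10 genes higher and 1 lower. Their part in the result was not tested. In bulk RNA, fewer cells of a type cannot be told apart from less RNA per cell.

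With AC, the comparison was of KO + AC with WT + AC. Ctsc, Ctsh, Ctss and Ctsz were higher in the libraries labelled KO by 1.08- to 1.15-fold, and Ctsl was lower by 1.23-fold. That is 5 of 10 members, beside 11.3% of all genes (6.58% higher and 4.75% lower). The median log2 difference was 0.08 over the members and -0.02 over all genes, and 8 of 10 members had groups that did not overlap, beside 26.4% of genes.

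Ctsl had 4789, 4633 and 4828 CPM in WT + AC and 3974, 3893 and 3958 in KO + AC, so that every KO + AC library lay below every WT + AC library (log2 -0.29 ± 0.03, edgeR adjusted p = 2.29e-09). Ctss had 5335, 5348 and 5442 CPM in WT + AC and 6317, 6267 and 6306 in KO + AC (log2 0.20 ± 0.03, edgeR adjusted p = 6.28e-06). Ctsl and Ctss thus differed in opposite directions, each without overlap. Ctsh had 284, 258 and 277 CPM against 329, 308 and 324 (log2 0.21 ± 0.04, edgeR adjusted p = 3.3e-05). For Ctsc the values were 290, 297 and 306 against 350, 325 and 337 CPM (log2 0.16 ± 0.03, edgeR adjusted p = 0.00092). The groups of both genes were apart, with KO + AC library 2 the lowest of the KO + AC libraries. Ctsz had 1303 to 1347 CPM in WT + AC and 1400 to 1490 in KO + AC (log2 0.11 ± 0.03, edgeR adjusted p = 0.0217). Ctsa, Ctsb and Lgmn did not overlap either and were not called, at log2 differences of 0.08, 0.07 and 0.07 (edgeR adjusted p = 0.082, 0.205 and 0.171). Ctsd (log2 -0.03 ± 0.03) and Cst3 (log2 -0.05 ± 0.03) overlapped between the groups.

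The Ctsz call was lost without WT + AC library 1 or 2 or without KO + AC library 1, with adjusted p from 0.011 to 0.145 when each library was left out. In the joint edgeR fit of all 12 libraries, which takes 1 estimate of spread for both conditions, 0 members (2 at an unadjusted p under 0.05) and 157 of all genes were called here, whereas DESeq2 within the table called 7 members. Macrophage markers summed to 12816 to 13592 CPM in WT + AC and 15482 to 15772 in KO + AC. Of these, 5 of 10 were called higher, beside 6.58% of all genes. The fibroblast and stromal list summed to 395 to 434 and 273 to 294 CPM, with 6 of 10 tested genes lower, beside 4.75% of all genes. Whether these markers bear on the result was not tested.

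The libraries with AC were then compared with those without, in each genotype. All 10 members were lower in WT + AC than in WT, by 1.17- to 4.36-fold, and 9 were lower in KO + AC than in KO, by 1.76- to 6.46-fold, with Ctsc higher by 1.25-fold. Calls were general in both comparisons. In WT 85.0% of genes were called (48.3% higher and 36.7% lower), and in KO 86.3% (49.6% higher and 36.7% lower). The median log2 difference of the members was -1.28 in WT and -1.53 in KO, beside 0.25 and 0.32 over all genes. All genes shifted with the scaling, to medians of 0.36 and 0.41 under DESeq2 size factors, where the members' medians were -1.17 and -1.44. Members with groups that did not overlap were 10 of 10 in each genotype, beside 86.6 and 86.7% of genes.

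Cst3 showed the largest fall among the members in both genotypes, from 2395 to 2613 CPM in WT to 568 to 591 in WT + AC (log2 -2.12 ± 0.11) and from 2883 to 4213 in KO to 559 to 595 in KO + AC (log2 -2.69 ± 0.11). Ctss fell from 16043 to 19538 CPM in WT to 5335 to 5442 (log2 -1.75 ± 0.12) and by 1.30 ± 0.12 on the log2 scale in KO. Lgmn differed by -1.55 ± 0.09 in WT and -1.58 ± 0.09 in KO. Ctsz differed by -1.48 and -1.87, Ctsh by -1.45 and -1.63, and Ctsd by -1.07 and -1.48 on the log2 scale in WT and KO. Ctsb, at -1.11 in both, had 11714 to 12782 CPM in the 6 libraries with AC and 24832 to 29762 in those without. Ctsl fell by 0.99 ± 0.09 in WT and by 1.86 ± 0.09 in KO. Ctsa, at -0.64 and -0.81, moved least of the 9. Ctsc was the exception, at -0.22 ± 0.10 in WT (edgeR adjusted p = 0.0341) and 0.32 ± 0.10 in KO (edgeR adjusted p = 0.0037).

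**Figure D3:**
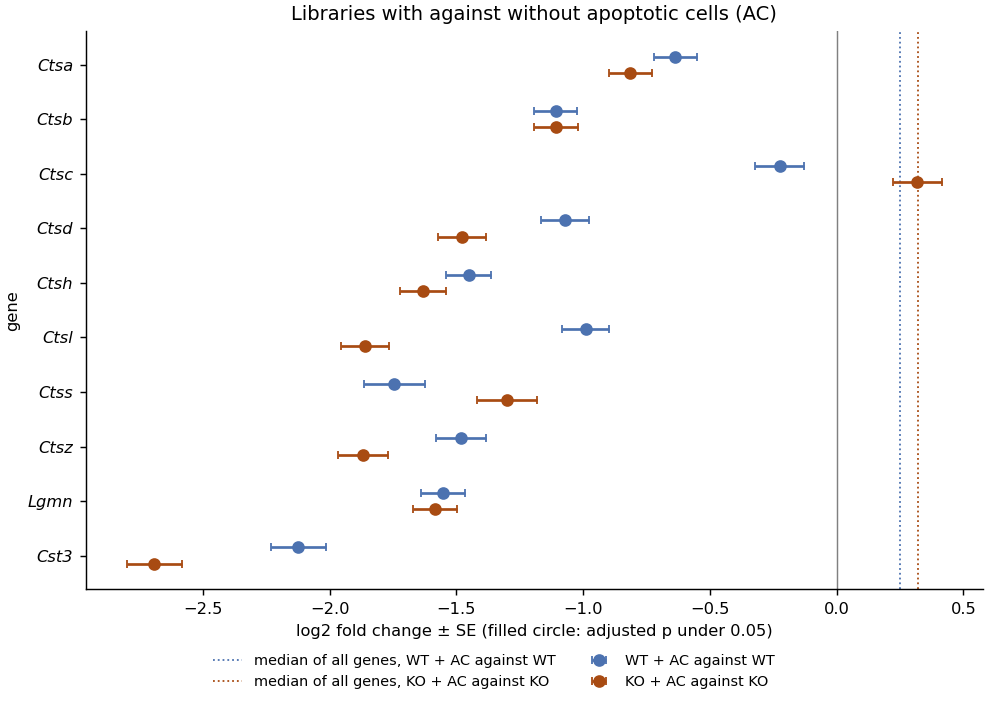
Log2 fold change with its standard error for libraries with against those without AC, in WT (blue) and KO (brown), with dotted lines at the median of all genes (0.25 and 0.32). Every circle is filled (edgeR adjusted p under 0.05); Cst3 lies furthest left at -2.12 and -2.69, and Ctsc alone has a value above 0.

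The sizes, though not the calls, of the 9 other members moved with gene length. With the reference transcript correction the members' medians were -0.77 in WT and -0.86 in KO, Ctsl in WT came to -0.26, and Ctsc in WT turned to 0.22 (edgeR adjusted p = 0.0015, range over alternatives 0.0015 to 0.298). Leaving out WT library 2 or 3 or WT + AC library 1 or 2 ended the Ctsc call in WT (edgeR adjusted p = 0.0745, 0.0788, 0.0902 and 0.0753), and leaving out KO library 2 ended it in KO (0.118). The KO value of Ctsc was also not called with the correction over all exons (log2 0.11, edgeR adjusted p = 0.146) and was 0.58 with the reference transcript correction. Of the 20 T cell genes listed, 15 were tested, with 12 higher and 2 lower with AC in each genotype. Beside these stood 48.3% of all genes higher in WT, 49.6% in KO and 36.7% lower in each. Lck had 0.61 to 1.43 CPM without and 19.5 to 28.3 with AC, and Zap70 0 to 0.24 and 18.3 to 23.7, whereas Lat had 28.5 to 56.0 and 13.9 to 17.9. The list summed to 55.4 to 74.3 CPM without and 133 to 157 with AC, and the macrophage list to 30243 to 38235 and 12816 to 15772 CPM. Symbols with a count numbered 18335 to 18540 without and 31787 to 32801 with AC, and the part of RNA from the engulfed cells in the members' values was not tested.

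The interaction asks whether the genotype difference itself differed between the conditions. It was called for 4 of 10 members, Ctsl, Cst3 and Ctsd lower and Ctsc higher, beside 12.7% of genes (7.55% higher and 5.13% lower). The genotype comparisons and those with AC share these libraries, so the interaction is no independent result. For Ctsl it was -0.87 ± 0.13 on the log2 scale (edgeR adjusted p = 9.09e-05). The interaction fit took 1 estimate of spread for both conditions, with a common coefficient of variation of 0.0839 against 0.117 without AC alone. Its SE for Ctsl thus lay below the 0.15 of KO against WT without AC, and p-values of the interaction may be too small. Ctsl was 1.52-fold higher in KO without AC and 1.23-fold lower in KO + AC, each without overlap. Cst3 gave -0.57 ± 0.15 (edgeR adjusted p = 0.0108) and Ctsd -0.41 ± 0.13 (edgeR adjusted p = 0.0405), both from a difference near 0 with AC. Ctsc gave 0.54 ± 0.14 (edgeR adjusted p = 0.0103). Ctss, at 0.44 ± 0.17, and Ctsz, at -0.39 ± 0.13, missed the threshold (edgeR adjusted p = 0.0764 and 0.058). Over 20 alternatives Ctss was called in 4 and Ctsz in 5. Among those of Ctss was the correction over all exons (log2 0.49, edgeR adjusted p = 0.0388).

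The Ctsl interaction was called in all 20 alternatives, between -0.82 and -1.10 (adjusted p 1.07e-09 to 0.000775). All of them pooled the spread of both conditions. Leaving out KO libraries 1 and 2 together, where Ctsl without AC came to 0.40, was not run for the interaction. Under the reference transcript correction Cst3 came to -0.15 and Ctsd to -0.17, neither called, and Ctsc to 0.35 (edgeR adjusted p = 0.0083, range over alternatives 0.0025 to 0.193). With the correction over all exons Ctsc came to 0.21 and was not called (edgeR adjusted p = 0.193). The Ctsc call ended without KO library 2 (0.0576), and the Ctsd call ended without any single library except WT library 1 or KO library 3 (adjusted p 0.000224 to 0.111). Members called numbered 2 without KO library 2 and 7 without KO library 3.

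**Figure D4:**
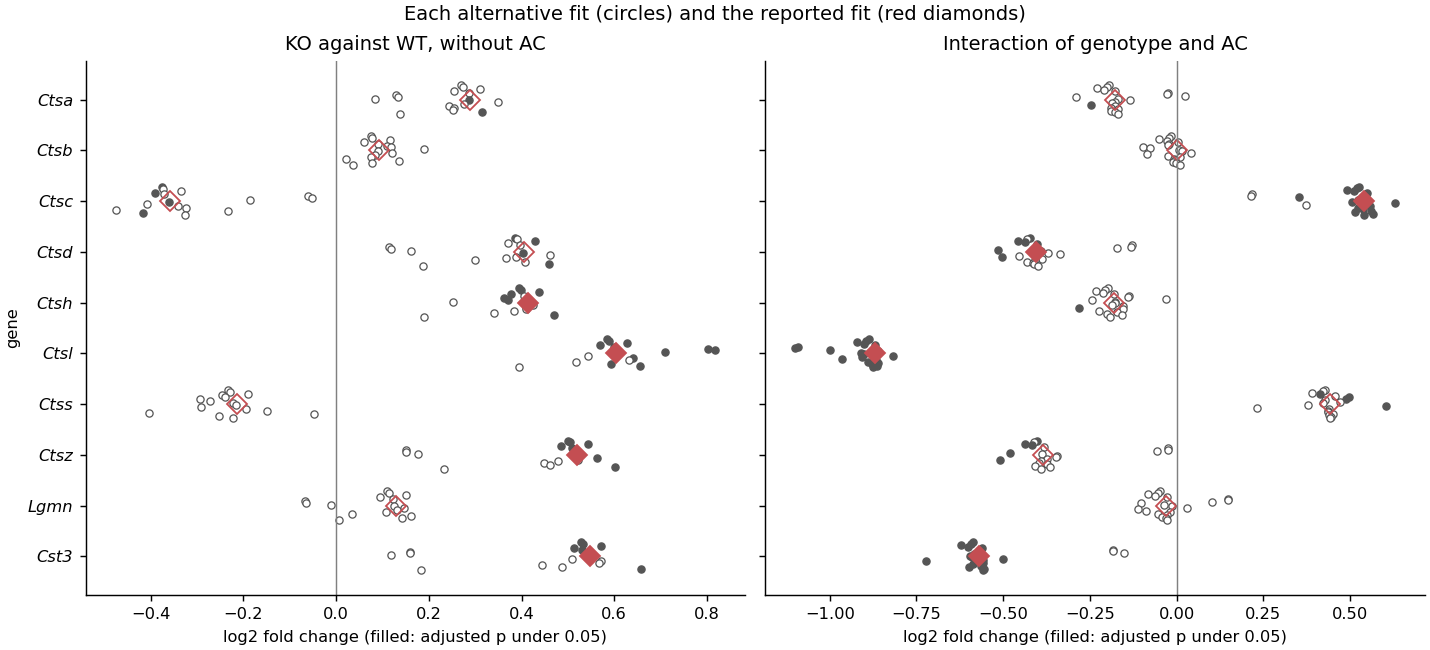
Log2 fold change of each gene in every alternative fit (circles) and in the reported fit (red diamonds), for KO against WT without AC and for the interaction, filled where the adjusted p was under 0.05. All Ctsl interaction points are filled and lie between -0.82 and -1.10, whereas those of Cst3 and Ctsd include unfilled points near 0.

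Ratios of raw counts within a library do not depend on the scaling between libraries. They were not corrected for GC or for the trend with gene length, which differed between libraries. The ratio of Ctsl to Ctss was 0.538, 0.535 and 0.501 in WT and 0.828, 1.24 and 0.803 in KO. With AC it was 0.898, 0.866 and 0.887 in WT + AC and 0.629, 0.621 and 0.628 in KO + AC. The order of the genotypes was thus opposite in the 2 conditions, with no overlap in either, and KO library 2 stood apart from the other KO libraries. Ctsl to Ctsb showed the same order, at 0.326 to 0.394 in WT and 0.474 to 0.569 in KO, and 0.395 to 0.410 in WT + AC and 0.309 to 0.318 in KO + AC. The ratio of Ctsl to its inhibitor Cst3 overlapped between WT (3.61 to 3.78) and KO (3.63 to 4.32). After the reference transcript correction, however, the log2 difference of KO from WT was 0.71 for Ctsl and 0.12 for Cst3. With AC the raw ratio was 8.11 to 8.23 in WT + AC and 6.68 to 7.02 in KO + AC, above all libraries without AC. These ratios are a description and were not tested.

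**Figure D5:**
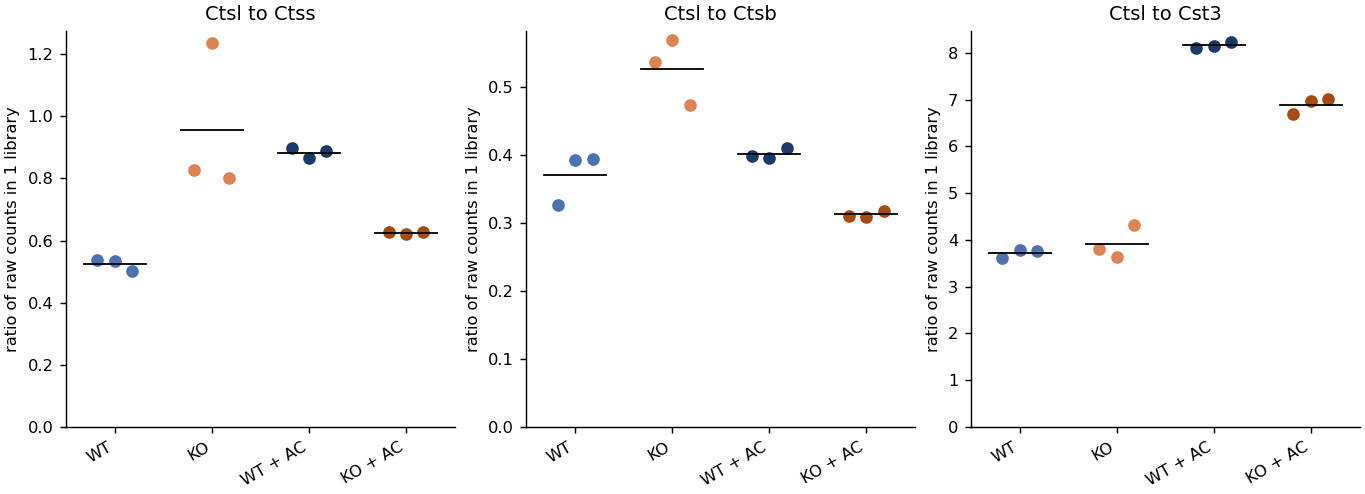
Ratio of raw counts of Ctsl to Ctss, Ctsb and Cst3 within each library (linear axes from 0), with a black line at the mean of each group. Ctsl to Ctss lies at 0.501 to 0.538 in WT, above 0.80 in KO and WT + AC, and at 0.621 to 0.629 in KO + AC.

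Of 12 other lysosomal proteases matched, 10 were tested without AC, with 2 higher and 1 lower in KO (median log2 0.13). Of all genes 7.94% were higher and 8.24% lower. Ctsk, the collagen-degrading cathepsin of osteoclasts and a close relative of Ctsl, had 338 to 369 CPM in WT and 556 to 748 in KO (log2 0.89 ± 0.13, edgeR adjusted p = 0.00023). With AC it had 210 to 238 CPM in WT + AC and 162 to 171 in KO + AC (log2 -0.47 ± 0.04, edgeR adjusted p = 5.66e-12). Ctsk was therefore higher in KO without and lower with AC, as Ctsl was, and its interaction was -1.33 ± 0.13 (edgeR adjusted p = 2.78e-07). It is also an osteoclast marker, and of that list 2 of 6 tested genes were higher in KO without AC and 5 of 7 lower with AC. Napsa, an aspartic protease related to Ctsd, was higher in KO without AC (63.7 to 66.0 CPM against 82.4 to 104; log2 0.54, edgeR adjusted p = 0.0084) and overlapped with AC (19.3 to 21.6 CPM in WT + AC and 19.4 to 21.6 in KO + AC). Ctso, a cysteine cathepsin, was lower in KO without AC (84.2 to 114 CPM in WT, 67.0 to 80.6 in KO; log2 -0.39, edgeR adjusted p = 0.0445). Its interaction was 0.55 (edgeR adjusted p = 0.0104). With AC, 2 of 11 tested were higher in the libraries labelled KO, the carboxypeptidases Prcp (log2 0.17) and Scpep1 (log2 0.10). Ctsk alone was lower, beside 6.58% of all genes higher and 4.75% lower. Between the conditions 9 of 11 were lower in WT + AC and 8 of 11 in KO + AC, beside 36.7% of all genes lower in each. The granule protease Ctsg had no count in the libraries without AC, and Ctsw, of cytotoxic lymphocytes, had 0 or 1 count there and 37 to 49 with AC.

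Of 15 matched genes of the cystatin, stefin, CTLA-2 and serpin families 5 were tested without AC, with Serpina3g higher (log2 0.80) and Serpinb1a lower in KO (log2 -0.51, edgeR adjusted p = 0.0356). Serpinb1a, which blocks neutrophil-type serine proteases, was the 1 gene of 4 called with AC, again lower (log2 -0.503). Beside these 2 of 5 and 1 of 4, 16.2 and 11.3% of all genes were called. Between conditions 5 of 6 were lower and 1 higher with AC in each genotype, beside 36.7% of all genes lower in each. Among the lower ones was Cstb, the intracellular stefin B, at -1.43 in WT and -1.59 in KO on the log2 scale.

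Of the 14 genes that sort enzymes to the lysosome, all tested, 2 were lower in KO without AC (the retromer subunits Vps35, log2 -0.44, and Vps26a, log2 -0.37) and 2 were higher in the libraries labelled KO with AC (Sort1, a sorting receptor, log2 0.15, and Psap, the saposin precursor, log2 0.13), beside 16.2 and 11.3% of all genes called. Vps35 and Vps26a also had interactions of 0.53 and 0.46, and Vps35 without AC turned to 0.05 under the length and GC correction over all exons. Igf2r, the large mannose 6-phosphate receptor, and Lrp1, a scavenging receptor, were higher with AC (log2 1.45 and 1.74 in WT). At the lowest among the alternatives they were at 0.44 and 0.18. Gnptg (log2 -1.23 in WT) and Nagpa (log2 -1.48 in KO) were lower with AC. Of the 14 sorting genes 6 were higher and 8 lower in WT + AC, and 6 higher and 5 lower in KO + AC. Beside these, 48.3% of all genes were higher in WT and 49.6% in KO, and 36.7% lower in each. Of the 4 MiT/TFE factors, which drive many lysosomal genes, Mitf was lower in KO without AC (64.5 to 73.6 CPM in WT, 44.2 to 61.5 in KO; log2 -0.43, edgeR adjusted p = 0.0311). It was higher in the libraries labelled KO with AC (100.05 to 103 against 114 to 126 CPM; log2 0.23, edgeR adjusted p = 2.37e-05), and its interaction was 0.69. Tfe3 was also higher in KO + AC than in WT + AC (log2 0.13). Against the libraries without AC, 2 of the 4 factors were higher and 1 lower in WT, and 3 higher and 1 lower in KO. Of all genes 48.3% were higher in WT and 49.6% in KO. Tfec was at 1.68 and 1.90, Mitf at 0.53 and 1.22 and Tfeb, the factor that was lower, at -1.40 and -1.77 on the log2 scale in WT and KO.

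Class II genes gave 1 of 9 calls without AC (H2-DMa, log2 0.45, edgeR adjusted p = 0.039, with overlapping groups), beside 16.2% of all genes. With AC they gave 7 of 9, all higher in the libraries labelled KO, beside 11.3% of all genes (6.58% higher). The invariant chain gene Cd74 had 303 to 325 CPM in WT + AC and 514 to 552 in KO + AC (log2 0.73 ± 0.03, edgeR adjusted p = 9.04e-22), without overlap. H2-Ab1 and H2-Eb1 differed by 0.78 and 0.74. The list's median was 0.40 with AC and 0.20 without. Of 10 tested, Cd74, H2-Aa and H2-Eb1 had called interactions of 0.86, 0.72 and 0.51, beside 12.7% of all genes.

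Of these pathway genes called without AC, Ctsk was called in all 6 fits that left out a library and Napsa in 5, lost without KO library 1 (edgeR adjusted p = 0.0545). Ctso, Serpina3g, Serpinb1a, Vps35, Vps26a, Mitf and H2-DMa were called in 1 to 3 of the 6. All 7 calls ended when WT library 2, WT library 3 or KO library 1 was left out singly, with largest adjusted p of 0.143 to 0.293. Over all 16 alternatives the differences nearest to 0 were -0.06 for Ctso, -0.14 for Mitf, -0.10 for Vps26a, 0.0081 for H2-DMa and 0.26 for Napsa. With AC, the Scpep1 and Tfe3 calls each ended in 4 of 6 such fits, both of them without WT + AC library 2 or KO + AC library 1. The H2-Eb1 interaction was called in 2 of 12 (adjusted p 0.0167 to 0.177), without KO library 1 or 3, and the Vps35 interaction in 10, lost without WT library 3 or KO library 2 (at most 0.0559). Kif13b was not called without KO library 1 in the comparison without AC (0.0624), nor without WT + AC library 2 or KO + AC library 1 or 2 with AC (at most 0.147).

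By likeness of log2 CPM over the 12 libraries, each centred on its mean and compared among 8194 genes, the gene nearest to Ctsh was Hexa, a lysosomal hexosaminidase subunit (root mean square difference 0.048 on the log2 scale). Nearest to Ctsa was Cndp2, a cytosolic dipeptidase (0.047), to Ctsb the adiponectin receptor Adipor1 (0.043) and to Ctsd the ribosomal scaffold Rack1 (0.058). Ctsc was nearest to Pcnp, Ctss to Commd8, Ctsz to Cope and Lgmn to Mcub, at 0.056 to 0.063, and Cst3 to Fau, a ribosomal protein precursor (0.060). Ctsl had the least close neighbour of the 10, Pstpip1, at 0.108. The libraries compared share depth and group differences, so the values are a description.

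Some counts cannot be given to 1 gene with certainty. Of the 75-base stretches of the reference transcript, 35.8% for Ctsd also lay in Gm49369, which had 0 counts, 19.8% for Ctsa in Neurl2 or Pltp on the opposite strand and 15.0% for Ctsb in Fdft1, while the other 7 members shared none. The strand setting of the counting is not given in the sources used here.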

How the data were processed

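Gene expression was measured by polyA RNA sequencing (150 bp paired-end reads) in 12 libraries of mouse macrophages. The authors deposited raw read counts per gene symbol, unnormalised, in 2 tables of 6 libraries each, without and with apoptotic cells. The submitters' processing notes name fastp, HISAT2 2.0.5, DESeq2 1.20.0 and the genome mm10, and which counting tool, annotation and strand setting were used is not given there. Groups were taken from the labels, and 0 columns were left unused.

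Counts were fitted in edgeR 4.0.16 (R 4.3.3) and tested two-sided by its robust quasi-likelihood method after filterByExpr and TMM scaling, with Benjamini-Hochberg adjustment over all genes tested and calls at an adjusted p under 0.05. KO was compared with WT within each table, and the effect of apoptotic cells and the interaction came from 1 fit of the 12 libraries on 54582 shared symbols. The procedure was tested on simulated counts with the same spread for all genes and libraries of a fit and no trend with length or GC. That test cannot show how such trends or unequal spread affect the calls. CPM are on the scale of the 12-library fit, in means ± SD. Positions and lengths are from GENCODE vM21 (GRCm38). The reference transcript of a gene is the one ranked first by CCDS, support level, APPRIS and length, with no filter on transcript type.

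The members and gene lists were chosen with earlier results of these data known. All 10 members are named, with Kif13b, up to 3 called genes with the smallest p of each of 5 lists (58 genes, 56 matched) per comparison, other cathepsins, and the 1 gene most like each member (mean of at least 10 CPM, 0.5 CPM added before the log). Alternatives were DESeq2 1.42.0, its size factors or upper quartile scaling in edgeR, no filter, a replicate block, a correction for length and GC, the joint or separate fit, and leaving out libraries. The correction on the reference transcript was chosen after seeing the data.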

Additional observations from a re-analysis of the deposited data

Results flagged for a closer look

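The test of the interaction marked 4 members whose genotype difference differed between the conditions, at log2 values of -0.87 for Ctsl, -0.57 for Cst3, -0.41 for Ctsd and 0.54 for Ctsc (edgeR adjusted p under 0.05 each). The Ctsl value was called in all 20 alternatives, each of which pooled the spread of both conditions. Kif13b gave 0.74, with its level lower in KO without and higher in the libraries labelled KO with apoptotic cells. Among the pathway genes Ctsk gave -1.33 and Napsa -0.53, while Ctso (0.55), Mitf (0.69), Vps35 (0.53), Vps26a (0.46), Cd74 (0.86), H2-Aa (0.72) and H2-Eb1 (0.51) gave positive values. The table and the presence of apoptotic cells cannot be told apart in any of them.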

How the results depend on the processing

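Without apoptotic cells (AC), members called by genotype were 4 in the reported fit, 7 in the joint fit, 2 with the length and GC correction, 1 with it on the reference transcript, 0 without KO libraries 1 and 2 and 0 to 7 when each library was left out. All genes called went from 2045 to 3999, 926, 794, 95 and 312 to 4166 in the same order. With AC, members called went from 5 to 8 with either correction and to 0 in the joint fit (4 to 6 leaving out libraries), and genes from 1866 to 1112 with DESeq2, 157 in the joint fit and 1192 to 2142 leaving out libraries. Interaction calls among members went from 4 to 2 with either correction and 2 to 7 leaving out libraries. Those 2 were Ctsl and Ctss over all exons, and Ctsl and Ctsc on the reference transcript. Among genes, interaction calls went from 2132 to 1129 to 4330 leaving out libraries. The interaction's split of 1269 higher and 863 lower genes became 998 and 1107 under upper quartile scaling, and the split with AC of 1083 and 783 became 831 and 281 with DESeq2. The cause of these changes was not tested. Replicate numbers did not pair the libraries (same-number correlations -0.258 to 0.219 without and -0.125 to 0.038 with AC). With the replicate block, 2496 genes were called without AC, 1649 with AC, 14246 and 14453 for AC in WT and KO and 2174 for the interaction, and with block and correction together 1301 genes and 2 members without AC, 8 members with AC and 2 for the interaction. Signs turned for Lgmn without AC (-0.0640 with the correction, -0.0666 with the block added and -0.0120 on the reference transcript), for Lgmn's interaction (0.148, 0.150 with the block, 0.103 on the reference transcript and -0.112 to 0.0300 leaving out libraries) and for Ctsa's (0.0247 on the reference transcript). Ctsb's interaction was -0.0146 with DESeq2, -0.0204 with its size factors, -0.0502 with upper quartile scaling, -0.0286 without the filter, -0.0253 with the correction, -0.0210 with the block added, -0.0971 on the reference transcript and -0.0865 to 0.0402 leaving out libraries. Ctsc in WT with AC turned to 0.225 on the reference transcript, Ctsk there to 0.201, 0.199 with the block and 0.242 on the reference transcript, and Vps35 without AC to 0.0503 (0.0496 with the block).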
